A study of Rattus norvegicus with 3 samples.

Results

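Potassium channel genes were described across the cell types and postnatal stages of the rat cochlea. The members were the genes whose symbol starts with Kcn and that were selected on their measured counts, with 20 or more unique molecular identifiers (UMIs, each a distinct captured transcript) summed over the kept cells of all stages. Of 92 Kcn symbols in the genes list, 68 met this minimum. Of these, 55 encode subunits that form the pore and 13 encode auxiliary subunits that bind to a pore. Kept cells had more than 500 detected genes, with no upper limit, and less than 25% of their UMIs from mitochondrial genes.

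The study profiled dissociated cochlear tissue of untreated Sprague-Dawley rats after birth, at days 1, 7 and 14 (called P1, P7 and P14). Cochlear tissue of pooled animals was digested with enzymes, red cells and dead cells were removed, and the suspension gave 1 single-cell library at each stage, prepared with a droplet method that reads the 3' end of transcripts. With 1 library a stage there was no replicate, so no test between stages was possible and the animal, the dissection and the stage cannot be told apart. The study's methods describe the tissue as the basilar membrane, freed by hand of the spiral ganglion, the spiral ligament and the stria vascularis, so the numbers of neurons, strial cells and ligament cells below count what this dissection left. The intervals given below are exact 95% Poisson intervals for levels and exact 95% binomial intervals for shares of cells, and both cover counting error only. The labels call the cells greater epithelial ridge, an epithelial ridge beside the developing sensory cells, but most of the cells carried other markers. Stroma (connective tissue cells) made up 61.9% of all kept cells, glia 18.4% and cochlear epithelium 1.81%.

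Potassium channels set the resting voltage of a cell and repolarise it after excitation. In the cochlea they also carry the potassium that drives sensory transduction: the fluid over the hair cells is rich in potassium, secreted by the marginal cells of the stria vascularis through the channel formed by Kcnq1 and Kcne1, and the ion is returned through supporting cells and fibrocytes. Voltage-gated (Kv) channels shape the firing of the spiral ganglion neurons, and the KATP channel formed by Kcnj8 and Abcc9 sets the tone of small vessels.

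The kept cells numbered 13162 at P1, 12664 at P7 and 5282 at P14, with 112269286, 96017007 and 11673483 UMIs. The P14 library was shallow, with a median of 1614.5 UMIs per cell against 6679 at P1 and 6902.5 at P7, so a total of 3 UMIs corresponded to 0.257 CPM (UMIs of a gene per 1e+06 UMIs of the cells summed) at P14 and to 0.0267 CPM at P1. The libraries shared 54 cell barcodes between P1 and P7, 16 between P1 and P14 and 19 between P7 and P14. Cells were clustered without any Kcn gene, and the clusters were given to 8 broad classes of more than 200 cells each, namely stroma, glia, neurons, cochlear epithelium, endothelium, pericytes and smooth muscle (mural cells), macrophages and B lineage cells. A cluster of 21 hair cells, all from P1, was described but not counted. The 2145 cells of the 6 clusters with mixed or unclear markers were left out of the classes.

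The 68 members held 48199 UMIs, 0.0219% of all UMIs in the kept cells, with a median of 314.5 UMIs a gene. Kcnk2, a mechanically and thermally gated leak channel, had the most with 8931 UMIs, followed by Kcnmb4, a regulatory subunit of the large-conductance calcium-activated (BK) channel, with 5326, and Kcnj8 with 3965. Together these genes held 37.8% of the members' UMIs. At the other end 18 members had fewer than 100 UMIs. Just inside the minimum were Kcnmb1 with 20 UMIs, Kcnv2 with 23, and Kcna10, Kcnc4 and Kcnn2 with 25 each. Kcnh3 with 18 UMIs and Kcne4 with 17 lay just outside it. Kcna7, Kcnk6 and Kcnk9 had 0 UMIs in all kept cells.

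By family, 13 of 15 Kv1 to Kv4 genes were members, among them Kcna2 (1612 UMIs) and Kcna6 (1303), followed by Kcnc1, Kcna1, Kcnd1, Kcnd3, Kcna3, Kcna4, Kcnc2, Kcna10 and Kcnc4. The two-pore domain leak channels gave 8 of 14 genes, with Kcnk2, Kcnk13 (1973 UMIs) and Kcnk1 (1404) ahead of Kcnk5, Kcnk3, Kcnk12, Kcnk10 and Kcnk7. The inward rectifiers gave 11 of 15, and Kcnj8 stood far above Kcnj11 (391 UMIs), Kcnj9, Kcnj13, Kcnj16, Kcnj12, Kcnj2, Kcnj14, Kcnj5, Kcnj10 and Kcnj4. The calcium- and sodium-activated channels gave 7 of 8 (Kcnn4, Kcnma1, Kcnn1, Kcnt1, Kcnn3, Kcnt2 and Kcnn2) and the Kv7 channels 4 of 5, among them Kcnq5, Kcnq3 and Kcnq1. The EAG, ERG and ELK channels gave 6 of 8 (Kcnh8, Kcnh2, Kcnh6, Kcnh5, Kcnh7 and Kcnh1) and the silent Kv subunits, which act only together with other Kv subunits, 6 of 10 (Kcns3, Kcns1, Kcng2, Kcng4, Kcnf1 and Kcnv2). The auxiliary subunits gave 13 of 17: Kcnmb1 to Kcnmb4 of the BK channel, Kcnab1 to Kcnab3 of the Kv1 channels, Kcnip1, Kcnip3 and Kcnip4 of the Kv4 channels, and Kcne1 to Kcne3.

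**Figure D1:**
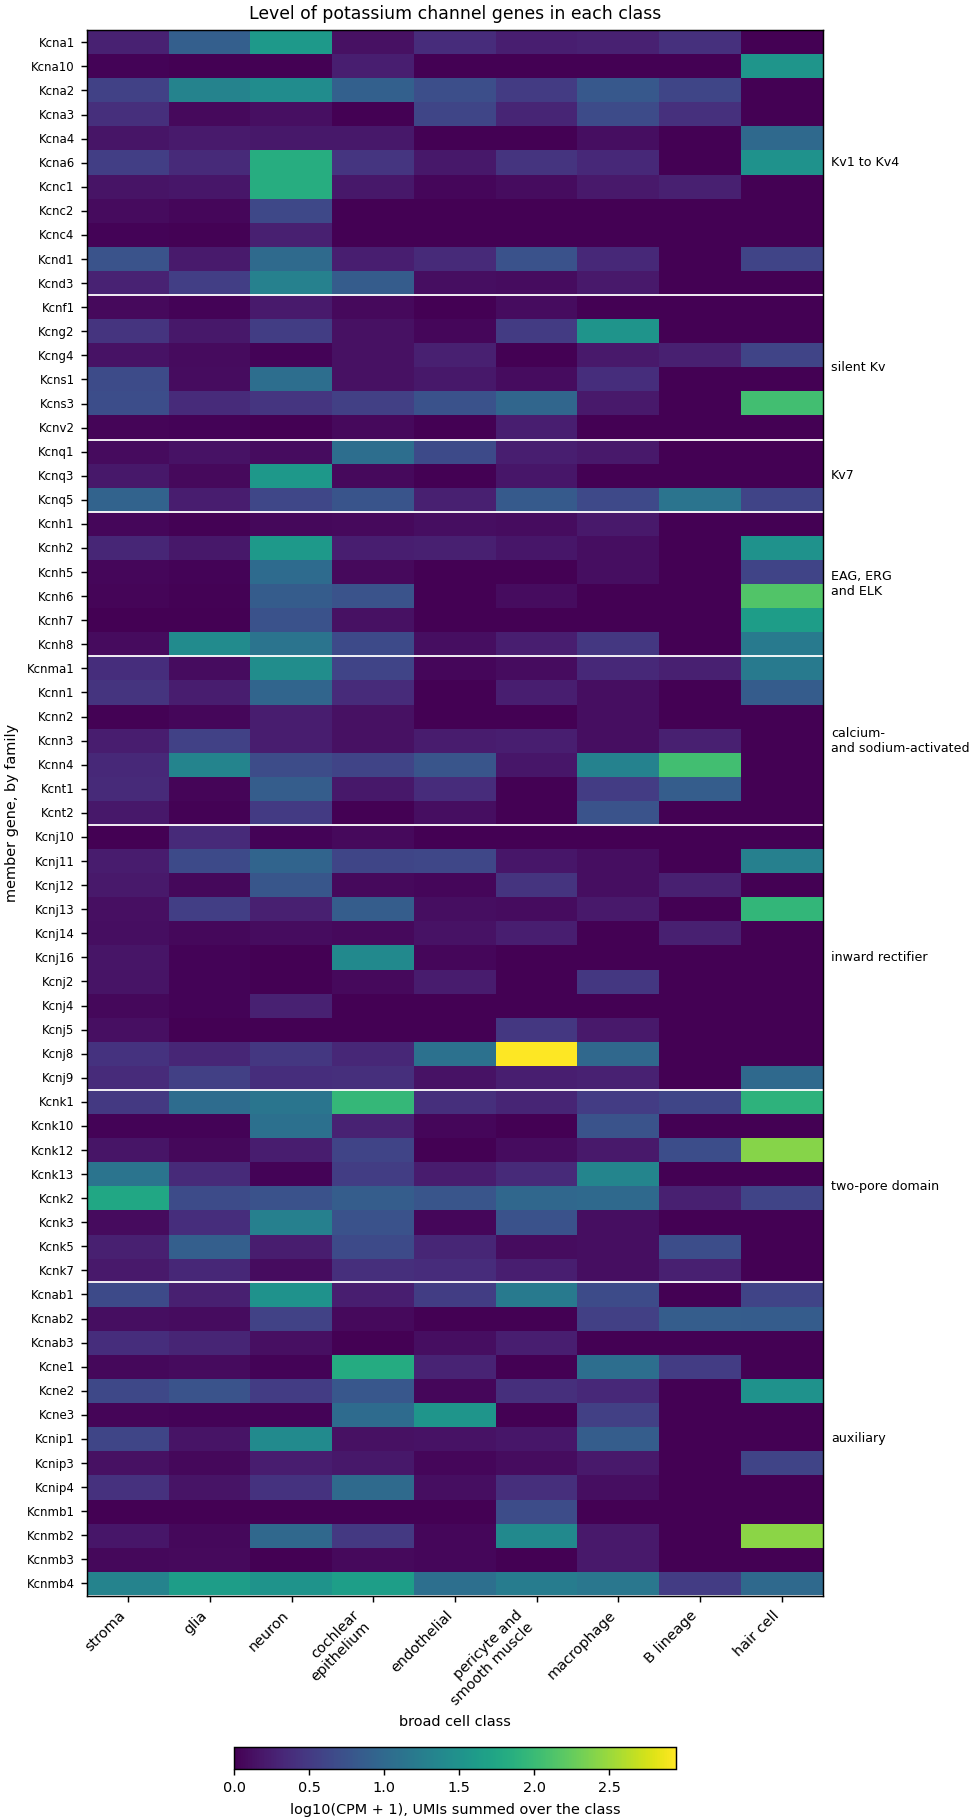
Level of members (rows, grouped by family) in each broad class (columns), as log10(CPM + 1) of the UMIs summed over the class. Kcnj8 in pericytes and smooth muscle, at 873 CPM, is the brightest field, and the neuron column holds more raised Kv1 to Kv4 and ERG rows than the others.

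Promoter stretches are shown for 4 channels called in a class, Kcne1, Kcnj8, Kcna2 and Kcnc1, and for Abcc9, the partner of Kcnj8, as examples of the genes described below. Each is the 120 bases before the RefSeq transcript start on assembly GRCr8 (the counts were made on rn6), read 5' to 3' on the strand of the gene. Capitals mark matches on either strand to 6 motifs, none of which overlapped here. The TATA box was searched as TATAAA and the CCAAT box by its own letters. The GC box was searched as GGGCGG and the E-box as CANNTG. A half-site of nuclear receptors was searched as AGGTCA. The core of the RBPJ site was searched as TGGGAA. The Kcne1 stretch (chr11:45077034-45077153, minus strand) held 1 E-box, those of Kcnj8 (chr4:177246549-177246668, minus strand) and Kcnc1 (chr1:106039127-106039246, plus strand) held no match, that of Abcc9 (chr4:177386349-177386468, minus strand) held 1 GC box, and that of Kcna2 (chr2:197393410-197393529, plus strand) held 3 GC boxes and 1 E-box.
Kcne1: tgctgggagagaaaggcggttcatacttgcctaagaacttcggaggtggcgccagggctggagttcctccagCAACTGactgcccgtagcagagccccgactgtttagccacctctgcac
Kcnj8: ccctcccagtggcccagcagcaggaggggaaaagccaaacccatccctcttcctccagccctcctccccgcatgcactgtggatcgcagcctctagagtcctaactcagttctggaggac
Abcc9: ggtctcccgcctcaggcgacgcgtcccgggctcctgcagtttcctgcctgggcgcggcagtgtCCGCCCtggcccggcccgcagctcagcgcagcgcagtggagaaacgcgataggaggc
Kcna2: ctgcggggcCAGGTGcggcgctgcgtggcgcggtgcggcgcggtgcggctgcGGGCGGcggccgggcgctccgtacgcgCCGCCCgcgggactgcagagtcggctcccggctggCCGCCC
Kcnc1: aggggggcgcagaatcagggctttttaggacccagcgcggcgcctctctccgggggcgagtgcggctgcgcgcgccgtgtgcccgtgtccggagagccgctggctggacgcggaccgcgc

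RefSeq promoters were found for 50 of the 68 members, 55 promoters in all. Over 120 bases a GC box occurred in 36.4% of the member promoters and in 23.7% of all 33469 promoters, an E-box in 25.5% and 39.4%, a CCAAT box in 10.9% and 19.9%, an RBPJ core in 10.9% and 10.5%, a TATA box in 1.8% and 6.7%, and a nuclear receptor half-site in 0% and 7.1%. The median GC content of the 250 bases before the start was 60.8% for the members and 51.2% for all promoters.

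A member was called in a class when its level there was at least 2-fold that in all the other classed cells, with 5 CPM added to both levels. Of the 68 members, 32 were called in at least 1 class and 36 in none. Neurons had 18 called members, against 6 in cochlear epithelium, 3 each in stroma, glia, mural cells and macrophages, 2 in B lineage cells and 1 in endothelium. The share of all 16747 genes tested that was called in the same way was 8.47% in neurons, 4.88% in cochlear epithelium, 3.33% in stroma, 3.88% in glia, 3.21% in mural cells, 5.65% in macrophages, 9.4% in B lineage cells and 5.88% in endothelium. The members' share was 26.5% in neurons and 8.82% in cochlear epithelium, both above that background, 4.41% in stroma, glia, mural cells and macrophages, close to it, and 2.94% in B lineage cells and 1.47% in endothelium, below it. The median log2 ratio over the members was 0.115 in neurons against -0.063 for all genes, and -0.031 against -0.041 in cochlear epithelium. In the other 6 classes the members' median lay between -0.219 and -0.085. The UMI minimum favours genes that are high in at least 1 class, so these counts are a description. The 6 members called in more than 1 class were Kcna2, Kcnab1, Kcne1, Kcne3, Kcnmb2 and Kcnn4.

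**Figure D2:**
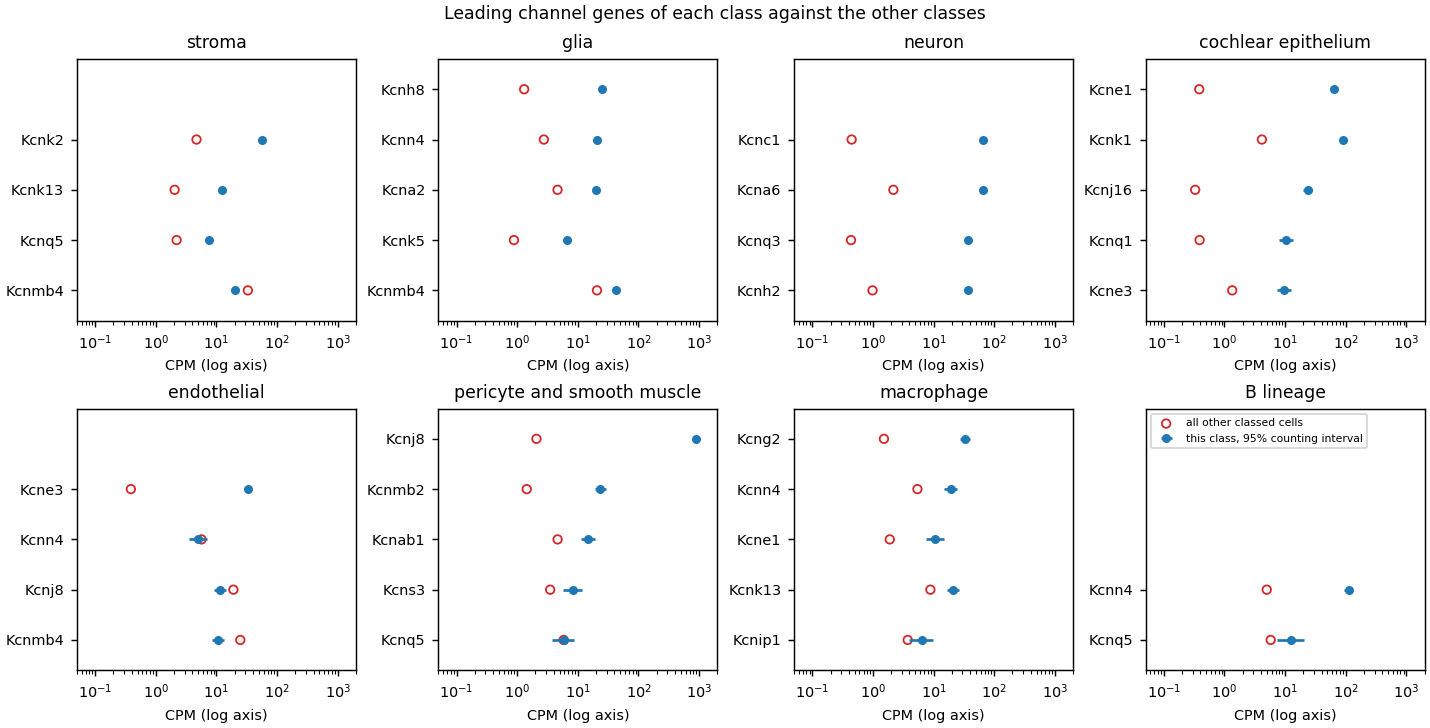
Level of leading members of each class (filled points with 95% counting intervals) and in all other classed cells (open points), in CPM on a log axis. The gap is widest for Kcnj8 in pericytes and smooth muscle, 873 against 2.08 CPM, and in the endothelial panel Kcne3 is the 1 gene well to the right of its open point.

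Summed over the members, the level was 997 CPM (966 to 1028) in mural cells and 646 CPM (632 to 660) in neurons, followed by cochlear epithelium at 347 CPM (332 to 363). Macrophages (184 CPM, 170 to 199), glia (175, 171 to 180), B lineage cells (169, 147 to 194) and stroma (168, 165 to 170) had overlapping or adjoining intervals, and endothelium was lowest at 111 CPM (104 to 119). In mural cells Kcnj8 gave 873 CPM of this sum. Neurons spread it over more genes: 25 members reached 5 CPM in neurons, against 13 in cochlear epithelium, 9 in macrophages, 7 in glia and in mural cells, 5 in stroma and 4 in endothelium and in B lineage cells. At an equal depth of 328267 UMIs per class, the depth of the hair cell cluster, the expected number of members with at least 1 UMI was 35.8 in neurons, 28 in hair cells, 26.1 in cochlear epithelium, 22.3 in macrophages, 19.5 in stroma, 18.3 in mural cells, 17.5 in glia, 15.5 in endothelium and 11.6 in B lineage cells.

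**Figure D3:**
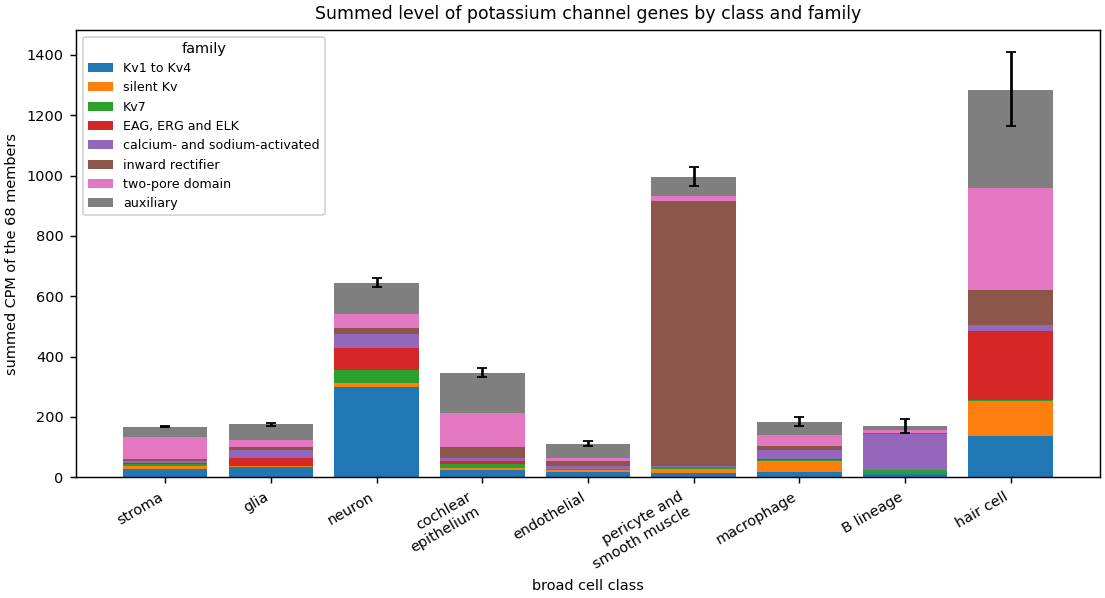
Summed CPM of the 68 members in each class, stacked by family, with 95% counting intervals of the whole sum. Inward rectifiers, with Kcnj8 at 873 CPM, make most of the bar of pericytes and smooth muscle, and Kv1 to Kv4 genes make the largest part of the neuron bar.

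The neurons carried the widest set of channels. The Kv3 channel Kcnc1, which allows fast firing, stood at 66.6 CPM (62.1 to 71.2) against 0.445 CPM in the other classed cells, and the Kv1 channel Kcna6 at 66.5 CPM (62.1 to 71.2) against 2.17. Of all UMIs of Kcnc1 in classed cells, 90.7% were in neurons, which held 6.11% of the classed UMIs. The low-threshold Kv1 channel Kcna1 stood at 37.4 CPM (34.1 to 41.0), the ERG channel Kcnh2 at 37.1 (33.8 to 40.6) and the M-current subunit Kcnq3 at 36.4 (33.1 to 39.9). The BK pore Kcnma1 stood at 26.4 CPM (23.7 to 29.4), and Kcna2 at 25.9 (23.1 to 28.9). Kcnk3, an acid-sensitive leak channel, Kcnk10, Kcnd3, Kcnh5, Kcnh6, Kcnn1, Kcnj11 and the auxiliary Kcnab1, Kcnip1 and Kcnmb2 were also among the 18, with levels from 6.13 CPM (Kcnh6) to 30.8 CPM (Kcnab1). Kcns1, Kcnt1, Kcnh7, Kcnj12, Kcnh8 and Kcnd1 were higher in neurons than in the rest without passing 2-fold on this scale. Kcnh7 stood at 4.54 CPM (3.44 to 5.88) and the small-conductance channel Kcnn2 at 0.717 CPM (0.328 to 1.36). Of the 490 neurons, 482 came from P1, with a median of 24501.5 UMIs per cell, so no stage could be compared. Of the P1 neurons 8.09% were marked as likely doublets.

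In the cochlear epithelium (564 cells) the 6 called members were Kcne1, Kcnk1, Kcnj16, Kcnq1, Kcne3 and Kcnip4. The log2 ratio of Kcnq1 was 0.374 without the P14 library and that of Kcne3 0.403 without the P7 library, both short of 2-fold. Kcnk1, a weak inwardly rectifying leak channel, was the broadest of them, at 89.6 CPM (81.8 to 98.0) against 4.14 CPM elsewhere, with a UMI in 43.2% of the P1 cells (37.3 to 49.2%) and 44.2% of the P7 cells (37.6 to 50.8%). In macrophages, with like median depths (7485 UMIs at P1 and 7134 at P7 against 7854.5 and 7196 in epithelium), 1.18% and 1.62% of cells had a Kcnk1 UMI. By stage its level was 77.0 CPM (66.8 to 88.2), 103 CPM (91.0 to 117) and 90.5 CPM (54.5 to 141), with no pair of stages past 2-fold. Kcnj16, an inward rectifier that pairs with Kcnj10, was at 23.6 CPM (19.7 to 28.1) against 0.329 CPM elsewhere. Kcnj10 itself had 1 UMI in the epithelium and 42 of its UMIs in glia, where it stood at 1.24 CPM (0.897 to 1.68). Kcnmb4 stood at 43.3 CPM (37.9 to 49.3) in epithelium and at 42.2 CPM (40 to 44.4) in glia, neighbours in order whose intervals overlapped.

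Kcne1 and Kcnq1, which form the potassium secretory channel of strial marginal cells, were carried by few epithelial cells at P1 and P7 and by many at P14. Kcne1 had 23 UMIs at P1, 20 of them in 1 cell, 31 at P7, 29 of them in 1 cell, and 289 at P14. In CPM these were 8.59 (5.45 to 12.9), 12.4 (8.46 to 17.7) and 1377 (1223 to 1545), and the P14 level was higher than that of P7 by 6.31 on the log2 scale with 5 CPM added. The carriers were 4 of 280 cells at P1, 3 of 231 at P7 and 26 of 53 at P14 (49.1%, 35.1 to 63.2%), and at 1000 UMIs per cell the expected shares were 0.426%, 0.453% and 44.6%. Macrophages at P14 had 0 carriers among 197 cells, with a median of 2230 UMIs against 3933 in the epithelium. Kcnq1 was at 2.24 CPM (0.823 to 4.88), 1.61 CPM (0.438 to 4.11) and 219 CPM (160 to 292), a log2 difference of 5.085 between P7 and P14. At P14 both genes stood apart from the earlier stages, whose intervals overlapped.

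The 26 P14 epithelial cells with a Kcne1 UMI held all 46 Kcnq1 UMIs of that stage, in 14 cells, and the 27 without held none, at median depths of 3971.5 and 3933 UMIs. They also held all 10 UMIs of Bsnd, a gene of strial marginal cells, although the stria was among the parts taken off in the dissection. Slc12a2, the cotransporter that loads potassium into marginal cells, stood at 13536 CPM (12832 to 14269) in the carriers and at 325 CPM (226 to 452) in the other cells. The sodium pump subunit Atp1b2 (8049 against 697 CPM) was higher in the carriers too. Epyc, Tecta and Tectb, genes of the ridge and its tectorial membrane, had 0 UMIs in the carriers, with an upper bound of 36.1 CPM, whereas Epyc had 1832 UMIs in 12 of the other cells, Tecta 26 and Tectb 1. The carriers were picked by Kcne1 itself, so these values are a description. The 6 marker genes of strial marginal cells summed to 96.8 CPM in the P1 epithelium, 362 CPM at P7 and 3092 CPM at P14. Whether the difference in Kcne1 and Kcnq1 between stages is one of cell make-up or of level within a cell was not tested beyond these values.

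Between P1 and P7 the epithelium had 3 of 15 tested members past 2-fold, all higher at P7, where 11.4% of all genes passed in either direction. Kcnj16 went from 5.6 CPM (3.14 to 9.24) to 43.0 CPM (35.2 to 51.9), a log2 difference of 2.18, with carriers in 15 of 280 and 36 of 231 cells. Kcne3, an auxiliary subunit that keeps Kcnq1 open, went from 3.36 CPM (1.54 to 6.38) to 17.3 CPM (12.5 to 23.3). Kcnk3 had 2 UMIs at P1 and 22 at P7, 10 of the latter in 1 cell. The difference of Kcne3 was 0.73 with the mean of each cell's CPM and that of Kcnk3 0.773 with fewer than 5000 genes, both short of 2-fold. Between P7 and P14 7 of 10 tested members passed 2-fold, 3 higher and 4 lower at P14, against 30.8% of all genes. Besides Kcne1 and Kcnq1 the higher one was Kcna2, at 28.6 CPM (10.5 to 62.2) from 6 UMIs. Kcna2 was also higher at P14 than at P7 in glia, stroma, macrophages and endothelium. The lower ones rested on 0 UMIs at P14 for Kcne3, Kcnip4 and Kcnk3 and on 1 UMI for Kcnmb4. With 53 cells at P14, 3 UMIs in that group equal 14.3 CPM, against P7 levels of 17.3 CPM for Kcne3, 14.5 CPM for Kcnip4 and 8.83 CPM for Kcnk3, so for these genes a lower level was not detectable at this depth or only just. Kcnmb4 was at 29.7 CPM (23.3 to 37.3) at P7 and 4.76 CPM (0.121 to 26.5) at P14, and the intervals overlapped. At P14 Kcnj16 had 5 UMIs, 23.8 CPM (7.73 to 55.6), and its interval overlapped that of P7.

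In glia (5733 cells) the called members were Kcnh8, an ELK channel with slow gating, at 25.2 CPM (23.6 to 27.0) against 1.30 CPM elsewhere, the intermediate-conductance channel Kcnn4 at 20.4 CPM (18.9 to 22) against 2.75, and Kcna2 at 19.9 CPM (18.4 to 21.5) against 4.63. Kcnk5 at 6.70 CPM and Kcnmb4 at 42.2 CPM came next, with log2 ratios of 0.99 and 0.88. Without the P14 library the ratio of Kcna2 was 0.992, and without the P1 library that of Kcnk5 was 1.174. Between P1 and P7, 3 of 27 tested members passed 2-fold, against 6.36% of all genes, and between P7 and P14 7 of 24, 6 of them higher at P14, against 20.9%. The first 3 were Kcna2 and Kcnk1, higher at P7, and Kcnh8, lower. The members' median log2 difference was 0.106 and 0.02, against 0.044 and -0.024 for all genes.

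The Kv1 genes of myelinated fibres stood out among the glial values at P14. Kcna2 was at 2.11 CPM (1.34 to 3.16) at P1, 17.9 CPM (16.2 to 19.8) at P7 and 284 CPM (250 to 321) at P14. Kcna1 was at 1.19 CPM (0.634 to 2.04), 3.88 CPM (3.1 to 4.79) and 142 CPM (118 to 169). The leak channel Kcnk1 was at 0.733 CPM (0.316 to 1.44), 8.62 CPM (7.43 to 9.94) and 150 CPM (126 to 177). For all 3 genes the intervals were apart at each step, and the log2 differences between P7 and P14 were 3.656, 4.05 and 3.507. Kcna6 (30 CPM, 19.7 to 43.6, from 27 UMIs) was also past 2-fold at P14, but at a log2 difference of 0.25 with a mitochondrial limit of 10%. The shares of glia with a Kcna2 UMI were 1.01%, 7.44% and 40.1%, or 0.187%, 1.5% and 25.3% at 1000 UMIs per cell. In P14 macrophages these shares were 3.05% and 1.05%, at a median of 2230 UMIs against 1913.5 in glia.

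The glial clusters differed by stage. Of the 362 P14 glia, 95.9% lay in cluster 16, which held the myelin genes Mbp and Prx among its leading genes, while 74.2% of the P7 glia lay in cluster 1. Within cluster 16, Kcna2 stood at 20.7 CPM (9.95 to 38.2) in 147 P7 cells and at 290 CPM (256 to 328) in 347 P14 cells. In cluster 26, a myelin-rich cluster with 151 of its 158 cells from P7, Kcna2 stood at 133 CPM (115 to 154), Kcna1 at 44.4 CPM (34.1 to 56.8) and Kcnk1 at 88.1 CPM (73.3 to 105), against 11.9, 1.47 and 3.46 CPM in the P7 cells of cluster 1. The glial marker genes summed to 5527 CPM at P1, 15401 at P7 and 62176 at P14. The 10 neuron markers summed to 227, 111 and 242 CPM in glia, against 12031 CPM in P1 neurons. In the other P14 classes Kcna2 ranged from 0 CPM in mural cells to 28.6 CPM in epithelium. The part of these markers in the result was not tested. Cluster 16 also held cells with pigment genes at P1 and P7: Pmel stood at 769 and 1000 CPM there and at 2.29 CPM at P14. Kcnj13, an inward rectifier with a low conductance, stood at 22.7 CPM (13.7 to 35.5), 58.1 CPM (38.6 to 84.0) and 1.14 CPM (0.0289 to 6.37) in that cluster, and Kcnj10, the channel of strial intermediate cells, had 0, 0 and 1 UMIs there.

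Kcnh8 went the other way, from 46.9 CPM (42.9 to 51.1) at P1 to 15.1 CPM (13.5 to 16.8) at P7 and 8.88 CPM (3.83 to 17.5) at P14, with the P7 and P14 intervals overlapping. Kcnn4 was at 15.8 CPM (13.5 to 18.3), 23.3 CPM (21.3 to 25.4) and 5.55 CPM (1.80 to 12.9), the 1 glial member past 2-fold lower at P14. Kcnmb4 stood at 43.0, 42.5 and 24.4 CPM, with no pair of neighbouring stages past 2-fold. Kcnj8 had 7 UMIs in P14 glia and was past 2-fold from 25 UMIs at P7.

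**Figure D4:**
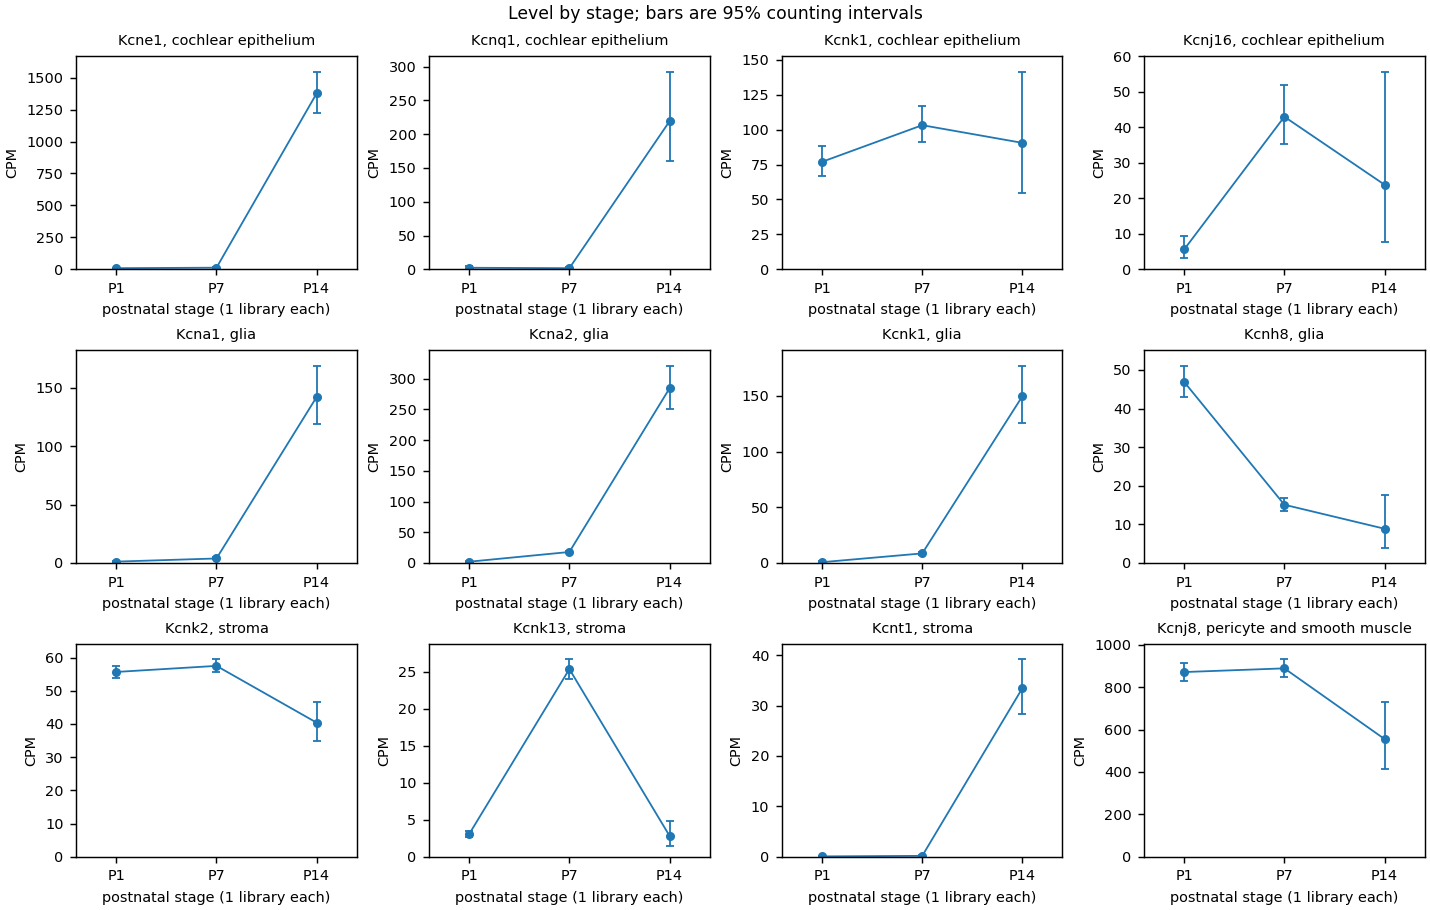
Level by stage (P1, P7 and P14, 1 library each) of 12 gene and class pairs, in CPM, with 95% counting intervals. Kcne1 and Kcnq1 in epithelium and Kcna1, Kcna2 and Kcnk1 in glia are highest at P14, and Kcnk13 in stroma is highest at P7. Kcnk2 in classed stroma and Kcnj8 in pericytes and smooth muscle show no step past 2-fold. The stroma shown leaves out cluster 20, a cluster with no class that held Kcnk2 at 494 CPM.

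Stroma (19251 cells) was marked by the leak channels Kcnk2, at 55.9 CPM (54.7 to 57.2) against 4.69 CPM elsewhere, and Kcnk13, at 12.5 CPM (12 to 13.1) against 2.04. Of the classed UMIs of these genes, 96.0% and 92.5% were in stroma, which held 66.9% of all classed UMIs. Without the P7 library the log2 ratio of Kcnk13 was 0.502, short of 2-fold. Kcnq5, a Kv7 channel, followed at 7.63 CPM (7.17 to 8.10) with a log2 ratio of 0.81, and 1.166 without the P1 library. Kcnk2 did not run evenly through the stroma. Kcnk2 was at 318 CPM (308 to 328) in cluster 7, whose leading genes include Aldh1a2 and Calb2, and at 96.0 CPM (89.5 to 103) in cluster 10, but at 4.18 CPM in cluster 11, where the list of cartilage markers scored highest. Of the cluster 10 cells 20.9% were marked as likely doublets, against 0.35% in cluster 7 and 0.64% in cluster 11. In cluster 7, which had 1 cell from P14, Kcnk2 was high at both earlier stages, with 275 CPM (263 to 287) at P1 and 380 CPM (363 to 397) at P7. Kcnk13 peaked in cluster 5, at 69.9 CPM (65.2 to 74.8).

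Over all classed stroma Kcnk2 was at 55.7 CPM (54.0 to 57.4) at P1, 57.5 CPM (55.6 to 59.5) at P7 and 40.4 CPM (34.8 to 46.6) at P14, and no step passed 2-fold. Cluster 20, with 314 of its 392 cells from P14, lies outside the class although 14 of 33 stroma markers were raised in it. It held Kcnk2 at 494 CPM (453 to 538). Classed stroma held 186 of the 757 Kcnk2 UMIs at P14. The steps with cluster 20 counted as stroma were not tested. Only Kcnk13, of 52 members tested, passed 2-fold between P1 and P7, where 4.66% of all genes did: it was at 3.06 CPM (2.68 to 3.49) and 25.3 CPM (24.1 to 26.6), and at 2.82 CPM (1.5 to 4.83) at P14. Between P7 and P14 3 of 42 members tested were past 2-fold, Kcnk13 and Kcnt1 among them, against 14.9% of all genes. Kcnt1, a sodium-activated channel, had 5 UMIs at P1, 10 at P7 and 154 at P14, that is 0.0672, 0.171 and 33.4 CPM (28.4 to 39.2 at P14). Of these UMIs, 145 lay in cluster 13, led by Ptgds and Slc7a11, where Kcnt1 stood at 89.0 CPM (75.1 to 105). In cluster 4, which holds most of the P14 stroma and is led by Coch and Otos, it stood at 3.03 CPM.

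Each of these stromal steps ran along with a change of clusters. Cluster 5 held 1642 of its 1664 cells from P7 and cluster 13 held 858 of its 859 from P14. For Kcnt1, and for the 824 Kcnk13 UMIs of cluster 5, the stage and the cluster therefore cannot be told apart. Kcnk13 also had 435 UMIs in cluster 2, with 758 cells from P1 and 2201 from P7. It had 186 UMIs in cluster 8 and 181 in cluster 6, which held cells of both stages too. The Kcnk13 step from P1 to P7 within these clusters was not tested. The P14 stroma had a median of 1556 UMIs per cell against 7404.5 at P7, and at 1000 UMIs per cell the expected share with a Kcnt1 UMI was 0.0167% at P7 and 3.15% at P14. In P14 macrophages that share was 0.777%, at a median of 2230 UMIs. Without the equal depth the P14 shares were 5.13% in stroma and 3.55% in macrophages.

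**Figure D5:**
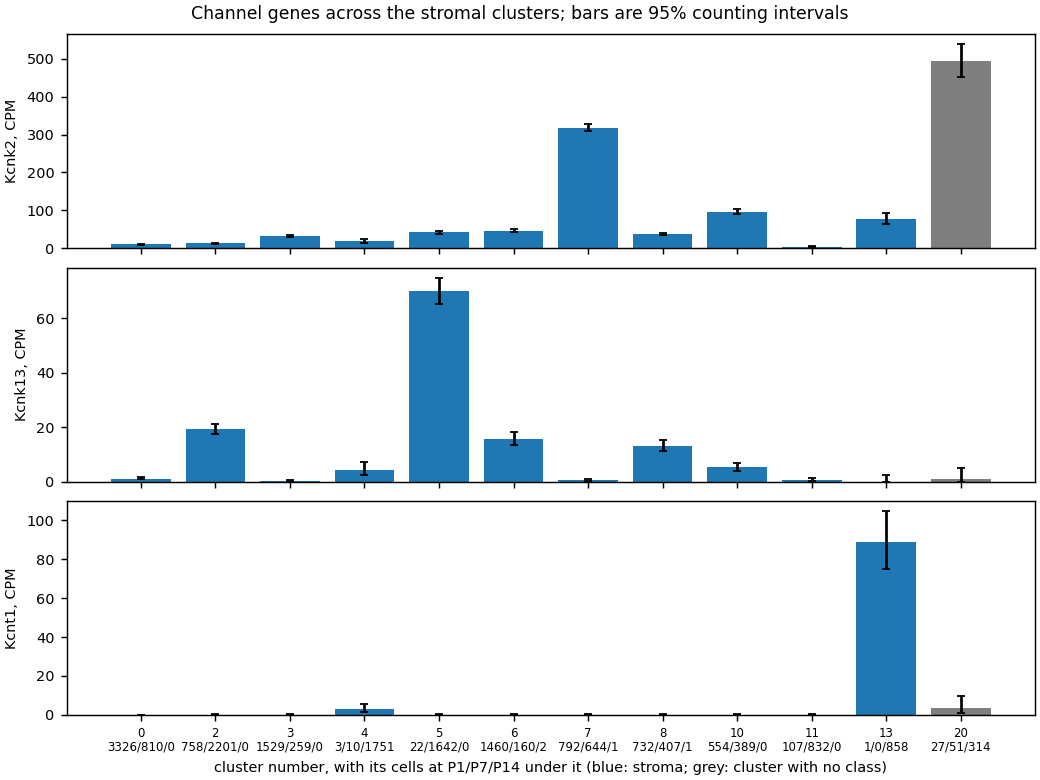
CPM of Kcnk2, Kcnk13 and Kcnt1 in each stromal cluster (blue) and in cluster 20, which has no class (grey), with 95% counting intervals and the number of cells at P1, P7 and P14 under each cluster number. Kcnk2 is highest in clusters 20 and 7, Kcnk13 in cluster 5 and Kcnt1 in cluster 13.

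The mural cells (684) showed the sharpest single channel. Kcnj8, the pore of the vascular KATP channel, stood at 873 CPM (844 to 903) against 2.08 CPM in the other classed cells, a log2 ratio of 6.96, and 89.2% of its classed UMIs were in mural cells, which held 1.92% of the classed UMIs. Its sulfonylurea receptor Abcc9 stood at 697 CPM in the same cells, with a log2 ratio of 5.58. Kcnj8 was at 872 CPM (830 to 915) at P1, 889 CPM (848 to 932) at P7 and 555 CPM (414 to 730) at P14. The first 2 intervals overlapped, and the P14 one lay below them without a 2-fold step. A Kcnj8 UMI was seen in 85.4% of cells at P1, 90.7% at P7 and 43.8% at P14, or 50.7%, 54.1% and 34.3% at 1000 UMIs per cell, where 29 of the 64 P14 cells were too shallow and were left out. In macrophages at P1 the share was 0 of 169 cells, at 7485 UMIs against 5218 in mural cells. The BK subunit Kcnmb2 was at 23.6 CPM (19.0 to 28.9) and the Kv1 subunit Kcnab1 at 14.7 CPM (11.2 to 19.0), with a log2 ratio of 0.733 for Kcnab1 without the P7 library. Kcnmb1, the smooth muscle BK subunit, had 15 of its 18 classed UMIs here, at 3.80 CPM (2.13 to 6.27). Between P1 and P7 0 of 6 tested members passed 2-fold, against 7.39% of all genes, and between P7 and P14 Kcnmb4 passed, 1 of 4, lower at P14 with 0 UMIs there, against 37.1% of all genes. With 64 P14 mural cells, 3 UMIs equal 32.7 CPM. Of the mural cells 11.3% were marked as likely doublets.

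Endothelium (1380 cells) had 1 called member, Kcne3, at 33.1 CPM (29.1 to 37.6) against 0.388 CPM elsewhere, with 76.0% of its classed UMIs. Kcnq1 at 3.53 CPM and Kcna3, a Kv1 channel of lymphocytes, at 3.12 CPM came next, with log2 ratios of 0.622 and 0.395, and the other members at 5 CPM or more, Kcnn4, Kcnj8 and Kcnmb4, were below the rest at -0.09, -0.55 and -0.92. Kcne3 was at 23.3 CPM (18.6 to 28.8) at P1, 58.9 CPM (49.0 to 70.2) at P7 and 21.3 CPM (14.7 to 29.9) at P14. Both steps passed 2-fold, up by 1.176 and then down by a log2 difference of -1.281, and 20 of the 125 P7 UMIs were in 1 cell. The first step was 0.884 with the mean of each cell's CPM, and with 20 CPM added the steps were 0.866 and -0.934, all short of 2-fold. The P1 and P7 cells lay mostly in cluster 21 and 97.2% of the P14 cells in cluster 9, so the lower P14 value cannot be told apart from the cluster. Of 5 tested members 2 passed between P1 and P7, the other being Kcnmb4, lower at P7, against 6.51% of all genes. Between P7 and P14 4 of 5 passed, Kcna2 and Kcnk2 higher and Kcne3 and Kcnj8 lower, against 26.7% of all genes. The Kcna2 levels were 0.943 CPM at P7 and 17.4 CPM at P14. A higher P14 level of Kcna2 was not particular to endothelium. It was also seen in glia, epithelium, stroma (3.60 and 10.9 CPM) and macrophages (3.32 and 17.4 CPM), but not in mural cells (8 and 0 UMIs). Kcnj8 had 47, 30 and 7 UMIs in 13, 10 and 5 endothelial cells at the 3 stages, and its log2 difference between P7 and P14 went from -1.008 to 0.76 when only cells with fewer than 5000 genes were kept. The differences of Kcna2 (0.647 with 20 principal components), Kcnk2 (0.241 with the mean of each cell's CPM) and Kcnmb4 (-0.896 with that mean) also lost 2-fold under an alternative.

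Macrophages (551 cells) had the silent subunit Kcng2 at 32.6 CPM (26.9 to 39.2) against 1.52 CPM elsewhere and Kcnn4 at 19.1 CPM (14.7 to 24.2) against 5.41. The third called member, Kcne1, rested on 37 UMIs of a single P1 cell, and its log2 ratio was -0.805 without the P1 library. The leak channel Kcnk13, the potassium channel of microglia in the brain, was at 21.1 CPM (16.5 to 26.5), above the 12.5 CPM of stroma but not past 2-fold, which it passed without the P7 library (1.09). Kcng2 was seen in 47 of 169 cells at P1, 42 of 185 at P7 and 5 of 197 at P14, with levels of 43.3 CPM (33.1 to 55.8), 31.9 CPM (23.5 to 42.3) and 8.72 CPM (2.83 to 20.3). The first 2 intervals overlapped and the P14 value lay below both. Kcnk13 was at 10.1 CPM (5.53 to 17.0), 35.2 CPM (26.4 to 46.1) and 10.5 CPM (3.84 to 22.8). Between P1 and P7 4 of 8 tested members passed 2-fold, namely Kcne1, Kcnj8, Kcnk13 and Kcnn4, against 14.3% of all genes, and between P7 and P14 3 of 6, namely Kcnj8, Kcng2 and Kcnk13, against 21.1%. The Kcnn4 step, 1.092 in the main setting, was 0.827 at a clustering resolution of 0.4 and 0.818 at 1.2. It was 0.608 with 20 CPM added and 0.939 with the mean of each cell's CPM, all short of 2-fold. Of the 30 Kcnj8 UMIs at P7, 21 were in 1 cell, and without the cells marked as likely doublets its differences were 0.415 and 0.017. With 20 principal components those of Kcng2 and Kcnk13 between P7 and P14 were -0.319 and -0.225. The class also carried neutrophil lineage genes. These 8 markers summed to 5493 CPM, beside 17474 CPM for the 9 macrophage markers and 32.5 CPM in B lineage cells, the next class. Of the 8 markers 0 were both raised 2-fold and seen in 10% of the cells. The part of such cells in the values of this class was not tested.

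B lineage cells came almost wholly from P14 (287 of 289). Kcnn4, which keeps lymphocytes hyperpolarised during activation, stood at 112 CPM (94.7 to 133) against 4.98 CPM in the other classed cells, and 31.7% of the P14 cells had a UMI (26.4 to 37.4%). In P14 macrophages that share was 9.14%, at a median of 2230 UMIs against 3520, and at 1000 UMIs per cell the shares were 10.0% and 4.02%. Across classes Kcnn4 was ordered as B lineage, then glia at 20.4 CPM, and the step between these neighbours was larger than their intervals. Kcnab2 was called from 8 UMIs, at 6.33 CPM (2.73 to 12.5), and Kcnq5 stood at 12.7 CPM (7.24 to 20.6) with a log2 ratio of 0.71.

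The 21 hair cells, all from P1, held all 12 hair cell markers, with a summed level of 3741 CPM. They gave 421 member UMIs, a summed level of 1282 CPM (1163 to 1411). Kcnmb2 was at 271 CPM (218 to 334) with a UMI in 19 of 21 cells, and the two-pore channel Kcnk12 at 256 CPM (204 to 317) with a UMI in 16. The ERG channel Kcnh6 (137 CPM, 100 to 183) and the silent subunit Kcns3 (113 CPM, 79.4 to 155) were each seen in 19 cells. Kcnj13 was at 88.3 CPM (59.2 to 127), Kcnk1 at 79.2 CPM (51.7 to 116) and Kcnh7 at 42.6 CPM (23.3 to 71.6). Kcna10 was at 33.5 CPM (16.7 to 60.0), with 11 of its 25 UMIs in these cells. Kcnma1 had 5 UMIs and Kcnn2 none, where 3 UMIs equal 9.14 CPM. The 10 neuron markers summed to 1286 CPM in the cluster, and of the leading channels of the neurons Kcnc1, Kcnq3 and Kcna1 had 0 UMIs there, whereas Kcna6 and Kcnh2 had 10 each, 30.5 CPM (14.6 to 56.0). In the 8 counted classes the highest level of Kcnmb2 was 23.6 CPM in mural cells, that of Kcnk12 3.96 CPM in B lineage cells, that of Kcnh6 6.13 CPM in neurons, that of Kcns3 8.37 CPM in mural cells and that of Kcnj13 6.32 CPM in epithelium, each below the interval in hair cells.

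Of the 36 members called nowhere, Kcnmb4 (43.3 CPM in epithelium), Kcnq5 (12.7 CPM in B lineage cells), Kcns1 (10.5 CPM in neurons) and Kcnd1 (9.32 CPM in neurons) reached the highest levels in a single class. The inward rectifiers Kcnj2 (highest in macrophages at 2.02 CPM, 0.813 to 4.17), Kcnj4, Kcnj5, Kcnj9, Kcnj12 and Kcnj14 stayed at or under 5.18 CPM. Kcnf1, Kcng4, Kcnv2, Kcnh1, Kcnc4, Kcnip3, Kcnmb3 and Kcna4 stayed under 1 CPM in each of the 8 classes. Kcnc2, Kcnn3, Kcnt2, Kcnab3, Kcnk7, Kcna3 and Kcne2 stayed between 1.45 and 5.21 CPM at their highest.

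The potassium genes outside the Kcn names were taken from a list of 35 pumps, cotransporters, receptors and connexins, of which 33 were tested. In neurons 8 passed the same 2-fold rule, in cochlear epithelium 7, in mural cells 3, in stroma, glia, endothelium and B lineage cells 2 each, and in macrophages 0. These were 24.2% of the list in neurons, 21.2% in epithelium and 9.09% in mural cells, above the 8.47%, 4.88% and 3.21% of all genes given above. The 2 genes of a class were 6.06%, against 3.33% of all genes in stroma, 3.88% in glia, 5.88% in endothelium and 9.4% in B lineage cells. The 8 in neurons included the 4 HCN pacemaker channels and the pump subunit Atp1b1 (1341 CPM). The 7 in epithelium included Slc12a2 (505 CPM) and Atp1b2 (237 CPM), which accompany Kcnq1 and Kcne1 in marginal cells. In mural cells Abcc9 was joined by Atp1b2 and Slc12a2, and in stroma the 2 were the connexins Gjb2 (168 CPM) and Gjb6 (73.8 CPM).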

How the data were processed

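Per the labels and file headers, the authors deposited 1 matrix of raw UMI counts per gene and cell barcode for each stage, made with bcl2fastq and Cell Ranger (3.1.0 in the matrix header) on rn6, and they clustered the cells in Seurat 3.1.1. The deposited counts were not normalized, and the lowest total of a barcode was 500 UMIs in each matrix.

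From these counts, cells were filtered as stated and clustered in Seurat 5.3.0 under R 4.3.3 (2000 variable genes, of which 20 Kcn genes were removed, 10 principal components, resolution 0.8). Each cluster took its name from 1 of 19 marker lists, by the highest mean log2 ratio to the median over clusters, with at least 3 markers raised 2-fold and seen in 10% of cells. Clusters with over 50% of cells marked by Scrublet (scanpy 1.11.5), or with another list nearly as high or ahead among the leading genes, got no class. The osteoblast list beside stroma was exempt from the nearly-as-high rule. Cluster 4, with 67.0% of the P14 stroma, kept its class through this exemption. Its scores were 4.906 for stroma and 4.098 for osteoblast, with 3 of 5 osteoblast markers raised. The P14 stroma values therefore depend on it. Marked cells in named classes were kept. At P14 Scrublet marked no cell outside the endothelium (0.203% there), so doublets in that library are not known. The naming rule was chosen after the clusters were seen.

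Levels are UMIs summed over a class over the UMIs of the class (CPM), which needs no division by length for 3' counts. Class calls needed a log2 ratio of 1 with 5 CPM added. Stage differences used classes with 50 or more cells at both stages and genes with 20 or more UMIs over both. Named with values were, per class, up to 5 members with the largest ratio among those with at least 5 CPM and 10 UMIs, up to 5 with the largest stage difference, and a list of cochlear channels and their partners. The members and lists were chosen with earlier results of these data known. The fold rule and the intervals were tested on simulated data. Shares at 1000 UMIs per cell are the expected values when each cell is thinned to that number. Alternatives covered the cell filters, clustering, doublets, CPM added, UMI minimum and scaling. Antisense and overlapping genes could not be told apart here. Some genes are not reported here and are left out of the text and of the plots of single genes, while counts and sums cover all members.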

Additional observations from a re-analysis of the deposited data

Results flagged for a closer look

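Kcnj8 moved in opposite directions between P7 and P14 in different classes: the log2 difference was 1.056 in glia, -1.008 in endothelium and -1.887 in macrophages. The difference between classes was not tested. Each value rests on few UMIs, with 7 UMIs in P14 glia, 7 in P14 endothelium and 30 at P7 in macrophages, of which 21 were in 1 cell. The endothelial value was 0.76 with fewer than 5000 genes per cell and the macrophage value 0.017 without the cells marked by Scrublet.

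Kcnk2 stood at 493.974 CPM (453 to 538) in cluster 20, which got no class and stands outside the comparisons above. Its leading genes include Clec3b, Rarres1, Lbp and Cldn11, and 314 of its 392 cells came from P14. The erythroid list scored highest in it with 1 of 5 markers raised, and stroma came next with 14 of 33. By stage Kcnk2 was at 142 CPM (87.6 to 216) in the 51 P7 cells and at 579 CPM (530 to 632) in the P14 cells. This was the highest level of Kcnk2 in any of the 29 clusters.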

How the results depend on the processing

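No paired analysis was possible because each stage is 1 library. Of 21 counts, 196 alternative values stayed within 1.5 times the main one and 46 did not, with 20 and 2 more among the settings that left out a library, which were chosen after seeing the data. The number of members was 65 with fewer than 5000 genes per cell, 62 with a mitochondrial limit of 10% and 58 with 50 or more UMIs. The CPM added moved the counts most. With 1 CPM added, the called members were 7 in glia, 29 in neurons, 11 in epithelium, 2 in endothelium, 7 in mural cells, 9 in macrophages and 5 in B lineage cells, and with 20 CPM added 1 in stroma, 1 in glia, 8 in neurons, 3 in epithelium, 1 in macrophages and 1 in B lineage cells. For P1 to P7, 1 CPM gave 2 in stroma, 10 in glia and 5 in epithelium, and 20 CPM gave 0 in stroma, glia and endothelium and 1 in epithelium and macrophages. For P7 to P14, 1 CPM gave 14 in stroma and 13 in glia, and 20 CPM gave 1 in stroma, 4 in glia, 3 in epithelium and 0 in endothelium, mural cells and macrophages. A minimum of 100 UMIs gave 4 in glia, 1 in epithelium, 1 in endothelium, 0 in mural cells and 0 in macrophages for P7 to P14, and 1 in epithelium, 1 in endothelium and 0 in macrophages for P1 to P7. With the mean of each cell's CPM, 5 members were called in glia and 5 in macrophages, and 0 (P1 to P7) and 2 (P7 to P14) passed in endothelium. With fewer than 5000 genes, 7 passed in epithelium for P1 to P7. With the 10% limit, 4 passed in epithelium and 0 in mural cells for P7 to P14. Without the cells marked by Scrublet, 2 passed in macrophages for P1 to P7, and with 20 principal components 1 for P7 to P14. Without the P7 library 1 member was called in stroma, and without the P1 library 5 in glia.

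Of the single log2 ratios, 688 kept their side of the fold, 60 lost it, 11 gained it and 6 changed sign. With a library left out these numbers were 89, 6, 3 and 3. The sign changed for Kcnn4 in endothelium (0.02 with fewer than 5000 genes, 0.418 with the mean of each cell's CPM, 0.025 without P1 and 0.111 without P7), and for Kcne1 in macrophages (-0.207 with the 10% limit, -0.483 without marked cells and -0.805 without P1). It also changed for Kcnj8 between P7 and P14 in endothelium (0.76 with fewer than 5000 genes) and in macrophages (0.017 without marked cells). The causes were not tested, except that all Kcne1 UMIs of P1 macrophages lay in 1 cell. Depth limits the P14 values most, and 1 library a stage leaves every stage difference without a replicate.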
